A study of Mus musculus with 2 samples.

Results

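The genes described are those of the extracellular matrix: the collagens, the laminins, and a set of matrix glycoproteins and proteoglycans. They were taken by gene symbol from the platform's probe annotation: Col genes of numbered chains, the Lama, Lamb and Lamc genes, Nid1 and Nid2, Fn1, Fbn2, the Fbln genes, Bgn, Dcn, Lum, Sparc and Sparcl1, Postn, the Thbs genes, Hspg2, and the lecticans Bcan, Ncan and Vcan. Of 19503 genes with a value, 75 met the rule, 43 of them collagen chains and 32 other matrix genes. They rest on 77 probe sets, each naming 1 gene. Col6a5 and Col6a6 have 2 probe sets each, which were averaged.

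RNA came from cerebella of Tg(Pcp2-L10a-Egfp) mice at postnatal day 7. Their transgene expresses the ribosomal protein L10a, tagged with green fluorescent protein, from the promoter of the Purkinje cell gene Pcp2. The TRAP sample is the RNA that antibody-coated beads recovered with the tagged ribosomes (translating ribosome affinity purification), and the unbound sample is the RNA the beads left in the cleared homogenate. Both samples carry the transgene, both come from pooled cerebella of unstated number, and each was measured on 1 Affymetrix whole-transcript array. There is no replicate, so no value has an error, no test was run, and a difference of at least 2-fold is used as a rule of size only.

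The matrix gives tissue its scaffold. Collagen IV, laminins, nidogens and perlecan form the basement membranes that wrap brain vessels and underlie the meninges, while fibrillar collagens and the small proteoglycans that bind them belong to connective tissue such as the meninges and vessel walls. The tissue between neurons holds little fibrous collagen and is built instead on hyaluronan, the lectican proteoglycans that bind it, link proteins and tenascins. Glia and their precursors make much of this material, and neurons contribute part of it.

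Values are log2 expression values as the authors deposited them, and every difference is TRAP minus unbound, in log2 units. The floor mentioned below is 7.08, the median of every probe set value when both arrays are taken as 1 pool. It is a mark on the scale and no detection limit, since the table has no detection calls. Levels of different genes cannot be compared on an array, so every difference is taken between the 2 values of the same gene. The floor and the summed signals of marker lists do pool values of different genes and are rough guides only. The TRAP array had the lower median over all probe sets (6.92, against 7.25 in unbound). Pcp2 itself read 12.98 in TRAP and 11.65 in unbound, and Rpl10a, the gene of the tagged protein, 12.67 in TRAP and 12.13 in unbound. The 10 Purkinje cell markers with a value all read higher in TRAP, and 8 passed 2-fold, beside 4.58% of all genes.

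Of the 7 matrix genes that differed at least 2-fold, 4 have a promoter window in the RefSeq table of GRCm38.p6, and these are shown so that the genes behind the largest differences can be seen as sequence. Each window runs from 250 bases before to 50 bases after the annotated start, 5′ to 3′ on the gene's strand. Capitals mark promoter motifs found on either strand. The GC box was searched as GGGCGG, and boxes that overlap are each counted. The CAAT box was searched as CCAAT. For the TATA box the letters were TATAAA. Bgn lies at chrX:73483351-73483650 on the plus strand, Vcan at chr13:89742463-89742762 on the minus strand, Nid1 at chr13:13437352-13437651 on the plus strand and Ncan at chr8:70120795-70121094 on the minus strand.
Bgn: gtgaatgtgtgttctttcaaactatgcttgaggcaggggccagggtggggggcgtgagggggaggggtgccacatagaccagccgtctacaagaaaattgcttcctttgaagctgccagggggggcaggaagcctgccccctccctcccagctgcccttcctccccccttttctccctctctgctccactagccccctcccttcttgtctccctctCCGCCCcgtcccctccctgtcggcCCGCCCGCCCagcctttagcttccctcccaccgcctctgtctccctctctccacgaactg
Vcan: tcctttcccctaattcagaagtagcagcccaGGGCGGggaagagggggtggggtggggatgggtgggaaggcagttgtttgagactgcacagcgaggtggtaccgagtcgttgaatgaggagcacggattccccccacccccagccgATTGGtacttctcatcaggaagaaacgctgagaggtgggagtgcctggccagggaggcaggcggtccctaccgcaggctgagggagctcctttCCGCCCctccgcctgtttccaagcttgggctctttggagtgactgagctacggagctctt
Nid1: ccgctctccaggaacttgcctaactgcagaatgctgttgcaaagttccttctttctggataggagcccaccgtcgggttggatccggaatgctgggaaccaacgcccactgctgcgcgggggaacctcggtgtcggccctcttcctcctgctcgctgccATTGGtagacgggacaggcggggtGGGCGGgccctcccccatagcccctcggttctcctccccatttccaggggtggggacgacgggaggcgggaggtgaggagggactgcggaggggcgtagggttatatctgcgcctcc
Ncan: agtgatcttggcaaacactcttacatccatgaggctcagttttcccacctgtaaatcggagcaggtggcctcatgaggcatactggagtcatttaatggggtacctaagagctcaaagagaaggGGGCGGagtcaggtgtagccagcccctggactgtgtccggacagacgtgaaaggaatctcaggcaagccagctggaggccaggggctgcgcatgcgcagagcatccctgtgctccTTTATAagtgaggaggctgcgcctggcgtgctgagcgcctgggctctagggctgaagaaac
All 4 windows hold at least 1 GC box: 3 in Bgn, 2 in Vcan, and 1 each in Nid1 and Ncan. Vcan and Nid1 also hold a CAAT box, and Ncan a TATA box. A GC box stands in 35.7% of the 32851 promoter windows of the table, a CAAT box in 37.4% and a TATA box in 13.6%. Among the 61 windows of the 54 matrix genes found there, the shares were 59.0%, 34.4% and 13.1% for the same motifs. The windows of matrix genes were also richer in G and C, with a median of 60.0%, beside 52.7% over all windows. Their GC box share was not adjusted for that. The motif matches describe letters in a window and no binding site.

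The 2-fold differences fell on 7 of the 32 matrix genes other than collagens. The 7 genes at least 2-fold lower in TRAP than in unbound were the proteoglycan genes Bgn, Vcan, Dcn and Ncan, the glycoprotein gene Sparcl1, the basement membrane linker gene Nid1 and the fibronectin gene Fn1. No collagen gene and no laminin gene was among them, and none of the 75 genes was at least 2-fold higher in TRAP. The 7 genes are 9.33% of the 75, and 11.0% of all genes were at least 2-fold lower in TRAP, so the count as such is near the background. At least 2-fold higher in TRAP were 4.58% of all genes. The median difference of the 75 genes was 0.17, beside 0.10 over all genes. Of the 32 matrix genes other than collagens, 13 had a difference above 0, and 22 had both values at or below the floor. Their median was -0.24 as deposited and 0.09 with the array medians subtracted.

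Level matters for that count. Of the 75 genes, 50 had both values at or below the floor, 11 both above it, 9 the TRAP value only and 5 the unbound value only. All 9 above the floor in TRAP only were collagens, and all 5 above it in unbound only were other matrix genes. Some of the 9 passed narrowly, such as Col27a1 with 7.09 in TRAP. Taking each array singly, 20 of the 75 lay above the floor in TRAP and 16 in unbound. On at least 1 array, 25 of the 75 lay above it. Of all 19503 genes, 9277 lay above it in TRAP, 10004 in unbound, 10524 on at least 1 array and 8979 on neither array. Of the 19 genes whose mean of both arrays lay above the floor, 6 were at least 2-fold lower in TRAP and none higher; of all genes in that range, 16.8% were lower and 8.1% higher by as much. Of the 56 genes at or below it, 1 (Fn1) was at least 2-fold lower in TRAP, in a range where 5.22% of all genes were lower and 1.09% higher. A gene with a low value on 1 array lies above such a floor only if its other value is high, so these counts describe the genes that passed and do not stand for all members.

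**Figure D1:**
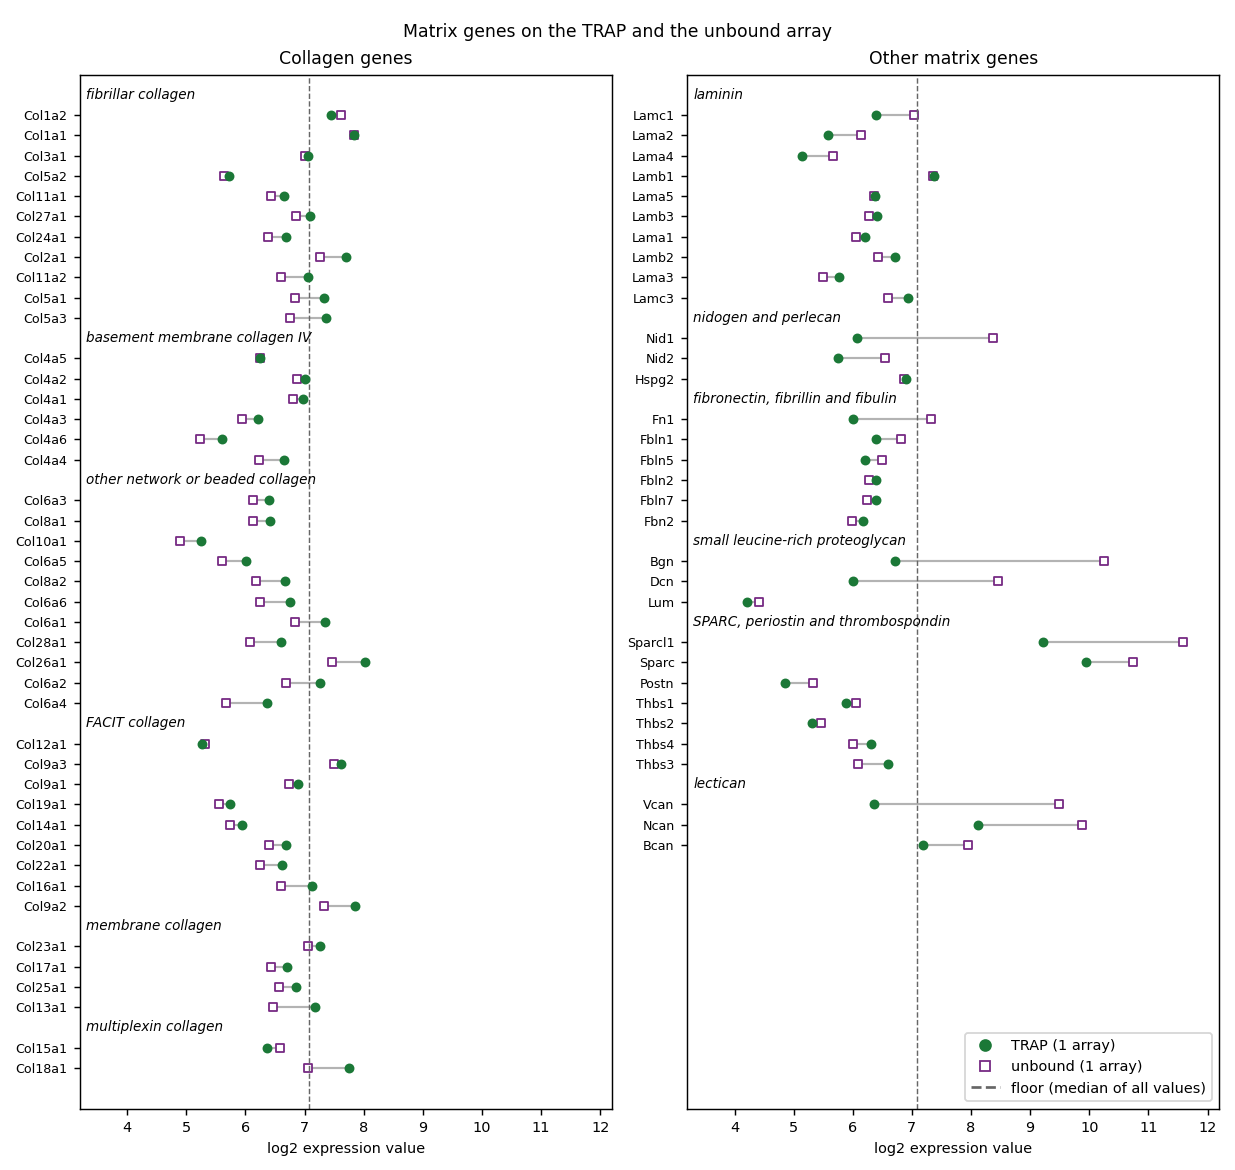
Log2 expression value (horizontal axis) of each of the 75 matrix genes on the TRAP array (green circles) and the unbound array (open squares), 1 array per fraction, with collagens on the left and other matrix genes on the right, sorted within class by difference; the dashed line is the floor at 7.08. Bgn, Vcan, Dcn, Sparcl1, Nid1, Ncan and Fn1 have the long lines with TRAP on the low side, while collagen values lie close together around or below the floor.

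The small leucine-rich proteoglycans, which decorate collagen fibrils, held the largest difference of the matrix genes. Bgn, encoding biglycan, read 6.72 in TRAP and 10.24 in unbound, an 11.4-fold lower value in TRAP that ranked 8 from the lowest among the differences of all 19503 genes. Dcn, encoding decorin, read 6.0 in TRAP and 8.46 in unbound, 5.48-fold lower. Lum, encoding lumican, had both values below the floor, 4.21 in TRAP and 4.42 in unbound. Dcn and Lum are neighbours on chromosome 10 with no protein-coding gene between them, and their differences were -2.46 and -0.20. The TRAP values of Bgn and Dcn lay below the floor, so the size of their folds is uncertain.

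Vcan, Ncan and Bcan encode lecticans, chondroitin sulphate proteoglycans that bind hyaluronan. These 3 genes were lower in TRAP under each of the 4 scalings compared. The fourth lectican gene of the family, Acan, encoding aggrecan, is not among the 75 genes and was picked out after its value was seen; it had both values below the floor, 5.68 in TRAP and 5.29 in unbound. Vcan, encoding versican, known in the brain from oligodendrocyte precursors and astrocytes, read 6.35 in TRAP and 9.48 in unbound, 8.77-fold lower, with the TRAP value below the floor. Ncan, encoding the brain proteoglycan neurocan, read 8.11 in TRAP and 9.87 in unbound, 3.40-fold lower with both values above the floor. Bcan, encoding brevican, read 7.18 in TRAP and 7.94 in unbound and differed by -0.76, short of 2-fold. Differences of Vcan, Ncan and Bcan thus span -3.13 to -0.76.

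Each of these lecticans has a link protein gene beside it in the genome, whose product ties lectican and hyaluronan together. Hapln4, the neighbour of Ncan on chromosome 8 and a component of perineuronal nets, read 9.76 in TRAP and 7.85 in unbound, 3.77-fold higher in TRAP. Ncan and Hapln4, with no protein-coding gene between them, therefore differed in opposite directions, by -1.77 and 1.91, and each kept its sign under the 4 scalings. The other 2 link protein genes were picked out after their values were seen: Hapln1, beside Vcan, differed by -0.55 and Hapln2, beside Bcan, by 0.07, both with values below the floor on each array. Over the list of 19 genes of perineuronal nets and hyaluronan, 4 were at least 2-fold lower in TRAP and 1 higher, beside 11.0% and 4.58% of all genes. The list's median was -0.17 as deposited, -0.33 after quantile normalization, -0.35 with the loess trend removed and 0.17 with the array medians subtracted. Ptprz1, a receptor phosphatase that is itself a chondroitin sulphate proteoglycan, read 5.26 in TRAP and 8.54 in unbound, and Tnr, encoding tenascin-R, a lectican ligand, 6.81 in TRAP and 8.71 in unbound. Chst11, a chondroitin sulphotransferase gene, read 7.89 in TRAP and 7.51 in unbound.

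Among the matricellular genes, whose products act on cells rather than as scaffold, Sparcl1 and Sparc both read well above the floor on each array. Sparcl1, encoding hevin, a secreted astrocyte protein known to promote synapse formation, read 9.21 in TRAP and 11.58 in unbound, 5.16-fold lower. Sparc, encoding a related collagen-binding protein, read 9.94 in TRAP and 10.74 in unbound, 1.74-fold lower. The pair kept this direction under the 4 scalings. Postn, encoding periostin, read 4.85 in TRAP and 5.32 in unbound. The thrombospondin genes Thbs1 to Thbs4 lay below the floor on both arrays, with differences from -0.18 (Thbs1) to 0.50 (Thbs3), and those of Thbs1 and Thbs2 changed sign when the array medians were subtracted.

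Basement membrane genes did not move as a unit. Nid1, encoding nidogen-1, which bridges laminin and collagen IV, read 6.07 in TRAP and 8.37 in unbound, 4.93-fold lower with the TRAP value below the floor. Nid2, encoding the related nidogen-2, read 5.75 in TRAP and 6.54 in unbound, a difference of -0.79. Hspg2, encoding perlecan, read 6.90 in TRAP and 6.86 in unbound. The genes of its partners, the laminins and collagen IV, differed by -0.65 to 0.43.

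Of 10 laminin genes with a value, Lamb1 was the only member above the floor, on both arrays. Laminins are trimers of an alpha, a beta and a gamma chain. The gamma chain gene Lamc1 read 6.39 in TRAP and 7.04 in unbound, a difference of -0.65. The alpha chain genes Lama2 and Lama4, known from vascular and muscle laminins, differed by -0.56 (5.58 in TRAP and 6.14 in unbound) and -0.51 (5.14 in TRAP and 5.66 in unbound). These 3 kept their sign under the 4 scalings. Lamb1, the beta-1 chain gene, read 7.38 in TRAP and 7.36 in unbound, and Lamb2, the beta-2 chain gene, 6.71 in TRAP and 6.43 in unbound. The remaining alpha chain genes were Lama1 (6.20 in TRAP and 6.06 in unbound), Lama3 (5.77 in TRAP and 5.49 in unbound) and Lama5 (6.38 in TRAP and 6.35 in unbound). Lamb3 read 6.41 in TRAP and 6.27 in unbound, and Lamc3 6.94 in TRAP and 6.60 in unbound. The median over the laminins was 0.08.

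Collagen IV, the network collagen of basement membranes, had all 6 chain genes below the floor on both arrays. Col4a1 and Col4a2, whose products form the common trimer, read 6.98 and 7.01 in TRAP and 6.81 and 6.87 in unbound. Their differences, 0.17 and 0.14, lay close together. Col4a3 read 6.22 in TRAP and 5.94 in unbound, and its neighbour Col4a4 6.66 in TRAP and 6.23 in unbound. On the X chromosome, Col4a5 read 6.24 on both arrays, and Col4a6 5.60 in TRAP and 5.23 in unbound. The 6 genes lie as 3 neighbouring pairs, and the first of these pairs is shown as sequence. Its genes are transcribed in opposite directions from the same stretch of DNA. The other pairs were not examined for this. The windows of Col4a1 (chr8:11312777-11313076, minus strand) and Col4a2 (chr8:11312555-11312854, plus strand) share 78 bases, given in capitals, which are reverse complements of each other.
Col4a1: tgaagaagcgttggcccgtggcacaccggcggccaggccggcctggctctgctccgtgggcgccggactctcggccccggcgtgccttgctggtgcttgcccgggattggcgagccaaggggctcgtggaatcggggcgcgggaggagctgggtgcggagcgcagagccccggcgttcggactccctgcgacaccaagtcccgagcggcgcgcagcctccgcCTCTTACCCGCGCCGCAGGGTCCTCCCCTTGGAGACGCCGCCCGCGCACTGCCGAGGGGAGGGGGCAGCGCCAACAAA
Col4a2: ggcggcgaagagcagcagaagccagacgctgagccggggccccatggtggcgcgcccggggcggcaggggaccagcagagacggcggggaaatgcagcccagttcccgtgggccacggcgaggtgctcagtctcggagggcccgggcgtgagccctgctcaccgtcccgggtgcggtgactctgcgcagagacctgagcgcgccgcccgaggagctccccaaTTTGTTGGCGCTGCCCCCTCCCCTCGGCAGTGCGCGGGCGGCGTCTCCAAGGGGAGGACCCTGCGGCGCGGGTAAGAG

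Fibronectin, fibrillin and fibulin genes lay mostly below the floor. Fn1, encoding fibronectin, read 6.01 in TRAP and 7.32 in unbound, 2.48-fold lower, and with the array medians subtracted its difference was -0.98, short of 2-fold. Fbln1 differed by -0.42 and Fbln5, needed for elastic fibres, by -0.29, the second turning positive with the array medians subtracted. Fbln2, Fbln7 and Fbn2 differed by 0.11, 0.16 and 0.19.

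Collagen chains other than collagen IV were near the floor or below it, and none differed 2-fold. Differences of all 43 collagen genes ran from -0.21 (Col15a1) to 0.72 (Col13a1), with a median of 0.30. A total of 39 of 43, or 90.7%, were above 0, beside 57.6% of all genes. Most collagens had a mean at or below the floor, and in that range more genes were above 0. Of the 33 collagens there 30 were (90.9%), beside 70.2% of all genes there, and of the 10 above the floor 9 (90.0%), beside 45.0%. After a loess trend of the difference on level was removed, the count was 39 of 43 again, beside 51.0% of all genes; after quantile normalization it was 41, beside 56.1%, and with the array medians subtracted 43, beside 73.0%. The difference between collagens and other genes was not tested, and 28 of the 43 genes had both values at or below the floor. Without detection calls, the table cannot tell a low transcript from background.

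The fibrillar collagens build the fibres of connective tissue. Col1a1 and Col1a2, the chains of collagen I, read 7.84 and 7.45 in TRAP and 7.83 and 7.62 in unbound, differences of 0.01 and -0.17, the second turning positive under each of the other 3 scalings. Col3a1, the collagen III chain gene, read 7.06 in TRAP and 7.0 in unbound. The 3 genes thus read almost alike on both arrays, while Bgn and Dcn, whose products bind such fibrils, were lower in TRAP by a size that is uncertain because their TRAP values lay below the floor. The highest of the 11 fibrillar differences was that of Col5a3, 7.36 in TRAP and 6.75 in unbound, and the class median was 0.24.

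Collagen VI forms beaded filaments around cells. Col6a1 read 7.35 in TRAP and 6.84 in unbound, Col6a2 7.26 in TRAP and 6.68 in unbound, and Col6a3 6.40 in TRAP and 6.13 in unbound. The neighbouring genes Col6a1 and Col6a2 thus had similar differences, 0.51 and 0.58. Col6a4 stayed below the floor, as did the averages of Col6a5 and Col6a6, with differences of 0.71, 0.39 and 0.51. The averages of Col6a5 and Col6a6 hide unequal probe sets: those of Col6a5 differed by 0.27 and 0.51, and those of Col6a6 by 0.35 and 0.66. The brighter probe set of Col6a6 lay above the floor on both arrays, with 7.98 in TRAP and 7.32 in unbound. That of Col6a5 lay above it in TRAP only, with 7.12 in TRAP and 6.61 in unbound.

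Collagens that associate with fibrils, span the membrane or carry heparan sulphate differed by less than 2-fold as deposited. The fibril-associated group of 9 genes ranged from -0.05 (Col12a1) to 0.53 (Col9a2) with a median of 0.19. The membrane collagens ranged from 0.20 (Col23a1) to 0.72 (Col13a1). Col18a1, source of the fragment endostatin, read 7.75 in TRAP and 7.06 in unbound, while Col15a1, its closest relative, read 6.37 in TRAP and 6.58 in unbound. Col13a1, Col6a4 and Col18a1 passed 2-fold with the array medians subtracted (1.05, 1.04 and 1.02), Col18a1 also after quantile normalization (1.02). Of all genes, 10.1% were at least 2-fold higher in TRAP under the first scaling and 6.67% under the second.

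**Figure D2:**
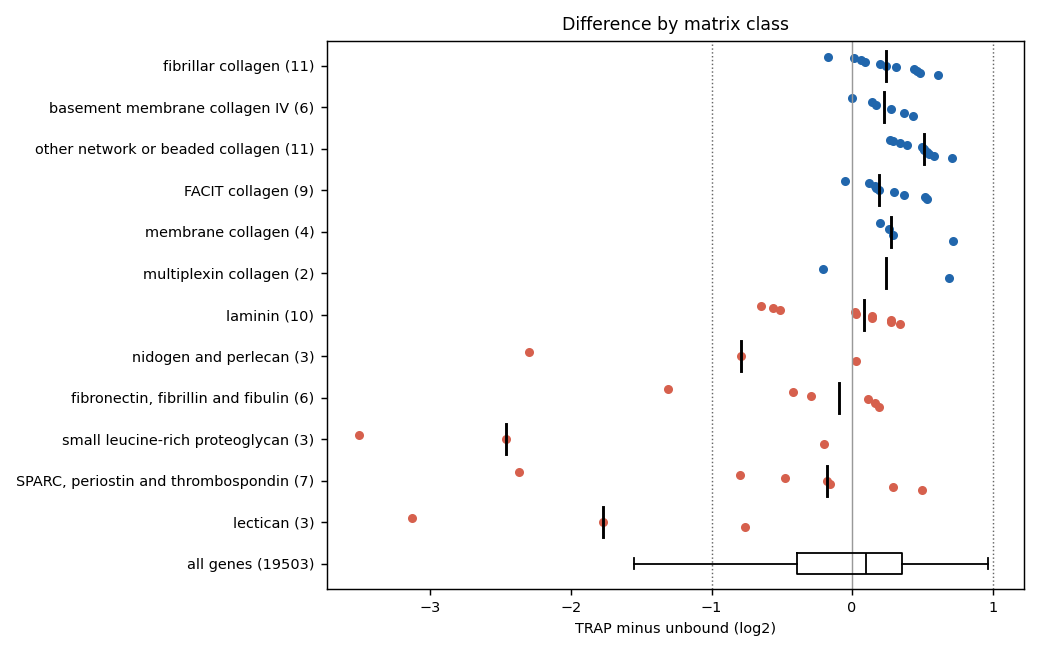
Difference TRAP minus unbound (log2, horizontal axis) of each matrix gene by class, number of genes in brackets; black bars are class medians, dotted lines mark 2-fold, and the box for all 19503 genes shows the quartiles and median with whiskers at the 5th and 95th percentiles. The collagen classes lie between -0.21 and 0.72, while the small leucine-rich proteoglycans and lecticans have medians of -2.46 and -1.77.

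**Figure D3:**
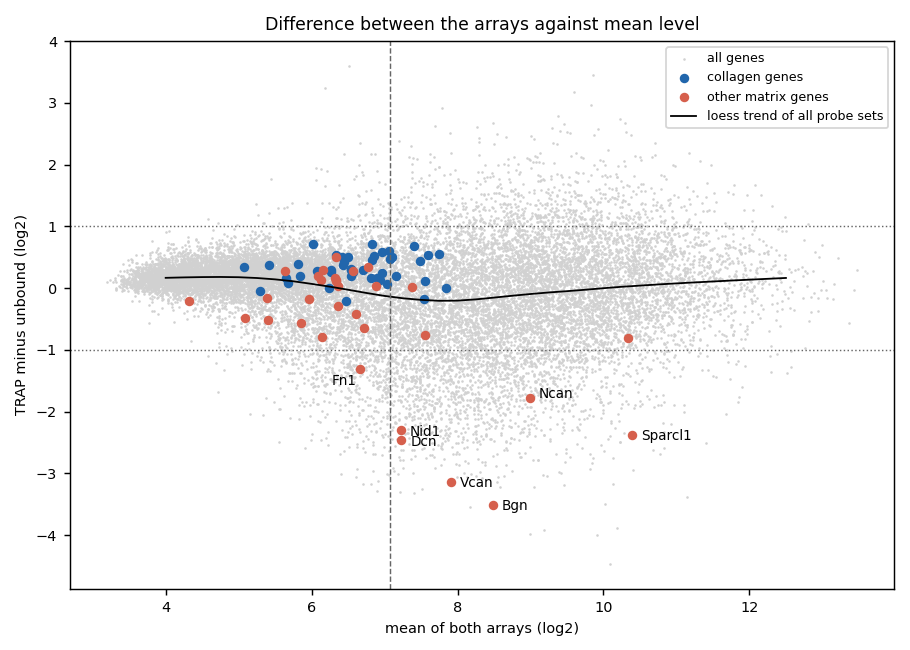
Difference TRAP minus unbound (log2, vertical axis) against the mean of both arrays (log2, horizontal axis) for all genes (grey), collagen genes (blue) and other matrix genes (red), with the loess trend of all probe sets (black), the floor (dashed) and 2-fold (dotted). The 7 named matrix genes lie below the lower dotted line, and most collagens lie above the trend.

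The machinery around the matrix was compared through 3 more lists. Of 27 genes of collagen folding, modification and processing, 7 were at least 2-fold lower in TRAP and none higher, beside 11.0% and 4.58% of all genes. The 7 became 4 after quantile normalization and likewise after subtraction of array medians, and the median of -0.26 became 0.07 with the array medians subtracted. Ppib, an endoplasmic reticulum prolyl isomerase gene, read 8.54 in TRAP and 10.08 in unbound, and P4ha3, a collagen prolyl hydroxylase subunit gene, 6.75 in TRAP and 8.10 in unbound. At the other end Lox, encoding lysyl oxidase, the enzyme that crosslinks collagen, read 7.34 in TRAP and 6.34 in unbound, just short of 2-fold, and it passed 2-fold under the other 3 scalings. Adamts3, a procollagen protease gene, read 8.33 in TRAP and 7.65 in unbound.

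Of 29 matrix receptor genes, 10 were at least 2-fold lower in TRAP (34.5%, beside 11.0% of all genes). At least 2-fold higher were 2 (6.9%, beside 4.58% of all genes). Their median of -0.48 was -0.15 with the array medians subtracted. Itgb1, the beta subunit gene shared by most integrins that bind collagen and laminin, read 6.77 in TRAP and 8.62 in unbound. Itgb8, an integrin beta subunit gene of glia, read 6.47 in TRAP and 8.13 in unbound. Higher in TRAP were Itga5, the alpha subunit gene of the fibronectin receptor, with 7.22 in TRAP and 6.12 in unbound, and Itga3, a laminin receptor subunit gene, with 7.95 in TRAP and 7.13 in unbound. The second gene past 2-fold was Itga11, with both values below the floor and a difference of 1.28. Of 22 matrix protease and inhibitor genes, 7 were at least 2-fold lower in TRAP (31.8%, beside 11.0% of all genes) and none higher, and the median of -0.41 was -0.08 with the array medians subtracted. Mmp16, a membrane-bound metalloproteinase gene, read 6.52 in TRAP and 9.04 in unbound, and Timp3, the gene of an inhibitor that binds the matrix, 6.82 in TRAP and 9.13 in unbound. Adamts4, encoding a protease that cleaves lecticans, read 8.29 in TRAP and 7.46 in unbound. Mmp14, a metalloproteinase gene, read 7.91 in TRAP and 8.52 in unbound.

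Markers of cells known to make matrix were mostly lower in TRAP, and their counts stand beside 11.0% of all genes. Of 12 markers of astrocytes and Bergmann glia, 9 were at least 2-fold lower in TRAP (summed signal 16472 in TRAP and 25091 in unbound, on the linear scale), and of 11 oligodendrocyte lineage markers 10 (2273 in TRAP and 8284 in unbound). Of 14 fibroblast and meningeal markers, 5 were at least 2-fold lower (1310 in TRAP and 3882 in unbound), of 12 mural cell markers 3 (939 in TRAP and 1943 in unbound), and of 11 endothelial markers 4 (703 in TRAP and 1055 in unbound), or 2 with the array medians subtracted. Pdgfra, with a difference of -2.16, stands in both the oligodendrocyte lineage and the fibroblast list and is counted in each. The sums weigh bright probe sets most. In TRAP the astrocyte sum is led by Aldoc, which went the other way with 12.97 in TRAP and 12.03 in unbound. In unbound it is led by Fabp7, with 12.27 in TRAP and 13.25 in unbound. The list medians were -1.99, -1.77, -0.73, -0.28 and -0.58 in the same order, and that of the mural markers was 0.05 with the array medians subtracted. At least 2-fold lower were also 9 of 10 granule lineage, 4 of 9 choroid plexus and 2 of 10 microglia markers. None of these 8 lists had a gene at least 2-fold higher in TRAP as deposited, but Aldoc, Hopx and the fibroblast marker Twist1 differed by 0.93, 0.93 and 0.95 and passed 2-fold with the array medians subtracted. No value in the table is 0; 9 of the 11 endothelial, 8 of the 12 mural and 6 of the 14 fibroblast markers had both values at or below the floor. The part of these cell types in the matrix gene differences was not tested, and in bulk fractions like these, RNA from fewer cells of a type and less RNA per cell cannot be told apart.

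**Figure D4:**
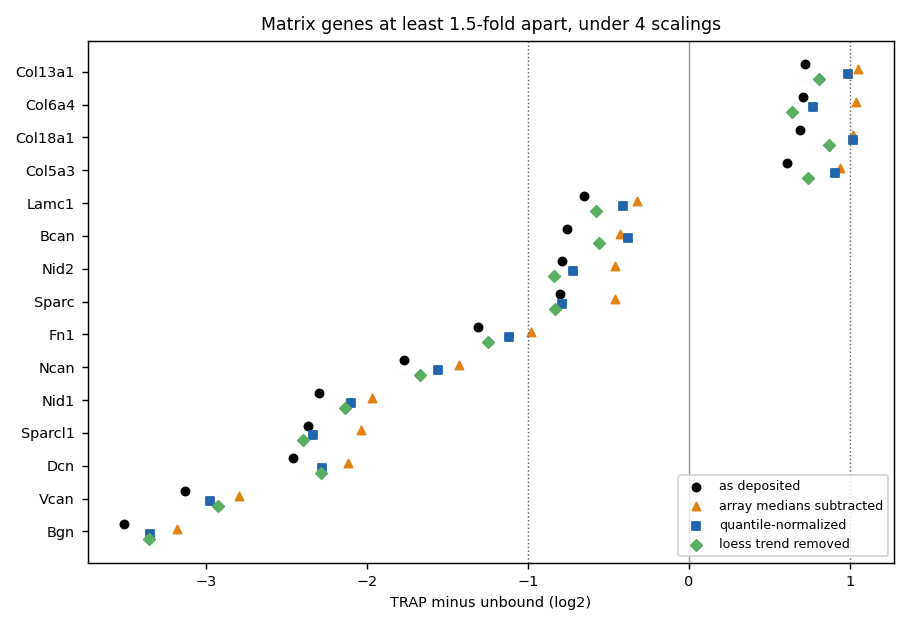
Difference TRAP minus unbound (log2, horizontal axis) of the 15 matrix genes at least 1.5-fold apart as deposited, under 4 scalings of the arrays, with dotted lines at 2-fold. Bgn, Vcan, Dcn, Sparcl1, Nid1 and Ncan stay beyond the left dotted line under each scaling, while Fn1, Col13a1, Col6a4 and Col18a1 cross 2-fold in some.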

How the data were processed

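The authors deposited log2 expression values, 1 per probe set on each of 2 arrays. Per the submitters' processing notes they came from Affymetrix Power Tools. Their version, background correction, normalization, genome build and log base were not stated in the sources used here. The range of 3.15 to 13.65 was read as log2. Of 22097 probe sets, 20999 name 1 gene in the platform annotation, 91 name several and 1007 are unnamed here; the first were averaged per gene. All 75 matrix genes matched RefSeq (GRCm38.p6) by Entrez identifier. All genes with a value were used with no floor, and differences were taken as deposited. The number of arrays limits the precision. Every matrix gene may be named; of each comparison list, the 2 genes at each end with a value above the floor are. The matrix genes and lists were chosen with earlier results of these data known, and symbols of lists without a value were not analysed here.

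Alternatives were the subtraction of array medians, which moved the median of all genes by 0.33 (log2), quantile normalization, a loess trend (lowess of statsmodels 0.14.6, span 0.3), 3 floors, the brightest probe set and thresholds of 1.5-fold and 4-fold. Scripts ran in Python 3.11.15 and were tested on simulated data.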

Additional observations from a re-analysis of the deposited data

How the results depend on the processing

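The count of matrix genes at least 2-fold lower in TRAP was 7 as deposited and stayed within 1.5 times of that under the 3 other scalings (6 to 7), the brightest probe set, floors on the mean (6) and on the higher array (7), and a 4-fold threshold (5). Of all genes, 6.8% to 10.0% were at least 2-fold lower in TRAP under the 3 other scalings. At 4-fold 2.37% of all genes were lower, and at 1.5-fold 19.5%. The count of matrix genes was 11 of 75 at 1.5-fold, where the 4 added genes are Sparc, Nid2, Bcan and Lamc1. It was 1 among the 2 genes whose mean exceeded the 75th percentile (Sparc and Sparcl1), and 1 among genes at or below the median floor, a range added after the data had been seen; both hold fewer genes by construction. The count at least 2-fold higher in TRAP was 0 as deposited, 3 with the array medians subtracted, 1 after quantile normalization and 4 at 1.5-fold. The median difference of 0.17 was 0.50 with the array medians subtracted, 0.37 after quantile normalization, 0.01 over the 19 genes whose mean exceeded the median floor and -1.58 over the 2 genes above the 75th percentile. Under the scalings 66 of the 75 genes kept their sign and 9 did not, all of them under 2-fold. The rule matched no symbol Col4a3bp here, so leaving it out changed nothing. No replicate could be left out, and the cause of the shifts was not tested. No paired analysis was possible because each fraction has 1 array. The lack of detection calls limits every statement on the 50 genes at or below the floor on both arrays.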

Other observations

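Genomic span is a property the choice of matrix genes did not use. Over 19466 genes with a RefSeq span, the difference TRAP minus unbound and span had a Spearman rho of -0.26. Over the 75 matrix genes, whose median span was 74.7 kb, beside 18.0 kb over all genes, rho was 0.17. Within the 43 collagen genes, with a median span of 114.0 kb, rho was -0.07. Within the 32 other matrix genes, with a median span of 54.8 kb, it was 0.05. These correlations are across genes of the same 2 arrays, and genes are not independent replicates.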
